A study of Mus musculus with 2 samples.

Results

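The 10 genes described here are 9 genes of the melanocyte lineage (Mitf, Sox10, Dct, Tyr, Tyrp1, Pmel, Mlana, Slc45a2 and Kit) and Kitl, the gene of the Kit ligand. They were chosen by name, and all 10 were found among the 43346 mouse genes of each table. The tissue was embryonic facial prominence, from which the face is built, at embryonic day 15.5 in B6NCrl mice. Both libraries were total RNA-seq of pooled healthy embryos of both sexes, 78 embryos in replicate 1 and 62 in replicate 2, with 10 ng of RNA longer than 200 nucleotides in each and a spike-in set added. Both were labelled biological replicates, shared a donor label and formed a single untreated group, so the data describe levels, transcript forms and the spread between the replicates.

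Melanocytes arise from the neural crest as melanoblasts, which migrate through the dermis into the epidermis and hair follicles and make melanin in organelles called melanosomes. Sox10, a neural crest transcription factor, activates Mitf, and Mitf in turn drives the genes of pigment synthesis. Kit is a receptor tyrosine kinase on melanoblasts, and its ligand Kitl, made by skin cells, keeps migrating melanoblasts alive. Several of these genes are also used elsewhere, Kit in mast cells and blood progenitors, Sox10 in Schwann cells, Mitf in mast cells, osteoclasts and the retinal pigment epithelium, and the pigment enzymes in that epithelium too. In a bulk sample fewer cells of a type and less RNA per cell cannot be told apart.

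The forms of 3 members turn on short stretches of coding sequence, shown here from the GENCODE M21 transcripts (GRCm38). In Kitl the stretch is exon 6 of 10, at chr10:100080857-100080940 on the plus strand, whose 84 bases (capitals) encode the main site where the membrane-bound ligand is cut to a soluble one. In each pair of forms, 15 bases of the neighbouring sequence stand on either side in lower case.
Kitl-202, with exon 6: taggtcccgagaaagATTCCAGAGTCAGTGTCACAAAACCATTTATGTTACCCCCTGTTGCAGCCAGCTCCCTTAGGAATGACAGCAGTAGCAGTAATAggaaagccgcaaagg
Kitl-201, without it: taggtcccgagaaagggaaagccgcaaagg
In Kit the stretch is the last 12 bases of exon 9 of 21, at chr5:75639147-75639158 on the plus strand (capitals), which add 4 codons to the extracellular part of the receptor.
Kit-201, with the insert: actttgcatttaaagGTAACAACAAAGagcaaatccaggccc
Kit-204, without it: actttgcatttaaagagcaaatccaggccc
In Mitf the first exon differs. The melanocyte form starts in its own exon at chr6:97991792-97991953, which lies 184734 bases downstream of the most upstream first exon at chr6:97807058-97807287, both on the plus strand. The coding parts of these exons, with the start codon in capitals, are shown because they tell the forms apart.
Mitf-201, melanocyte first exon: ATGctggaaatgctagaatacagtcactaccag
Mitf-202, most upstream first exon: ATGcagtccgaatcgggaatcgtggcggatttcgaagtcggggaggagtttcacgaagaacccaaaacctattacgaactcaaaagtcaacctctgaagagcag

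Promoter sequence was given for 6 of the members, in windows of 300 bases from 250 before to 50 after the RefSeq start (GRCm38.p6). The sequence TCATGTGCT, which holds the Mitf-bound core CATGTG, was found in the windows of Tyr, Tyrp1 and Dct, the 3 related enzyme genes of melanin synthesis, and in 0.408% of all 32851 promoter windows searched on both strands. Its first base lay 22 bases before the start in Tyr, 47 in Tyrp1 and 151 in Dct. The core CATGTG alone was in 14.2% of all windows and in those of the same 3 members, where it overlaps the longer sequence, with 1 more match on the reverse strand in Dct. CACGTG, another sequence of this family, was in 7.15% of windows and in none of the 9 windows of these 6 members. The window of the melanocyte start of Mitf held TGACGTCA, the recognition sequence of cAMP-responsive factors, 153 bases before the start, as did 1.79% of all windows. A match is a description of letters only. The 250 bases before the start are printed for Tyr (chr7:87493513-87493762, minus strand), Dct (chr14:118052247-118052496, minus strand) and Mitf (chr6:97991533-97991782, plus strand), with the match in capitals. For Tyrp1 (chr4:80834156-80834185, plus strand) 30 bases are printed, because they lie in the first exon of a short Tyrp1 transcript whose start is further upstream.
Tyr: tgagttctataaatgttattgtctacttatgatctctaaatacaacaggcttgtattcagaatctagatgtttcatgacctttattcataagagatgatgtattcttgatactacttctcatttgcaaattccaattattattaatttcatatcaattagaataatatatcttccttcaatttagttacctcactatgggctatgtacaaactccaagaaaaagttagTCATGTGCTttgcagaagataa
Dct: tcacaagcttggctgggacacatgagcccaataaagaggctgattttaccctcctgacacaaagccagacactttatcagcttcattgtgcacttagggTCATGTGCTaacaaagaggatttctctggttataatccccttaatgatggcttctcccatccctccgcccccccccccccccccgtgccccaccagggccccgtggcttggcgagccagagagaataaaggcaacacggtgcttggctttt
Tyrp1: ggggagggagTCATGTGCTgcctagtagtt
Mitf, melanocyte start: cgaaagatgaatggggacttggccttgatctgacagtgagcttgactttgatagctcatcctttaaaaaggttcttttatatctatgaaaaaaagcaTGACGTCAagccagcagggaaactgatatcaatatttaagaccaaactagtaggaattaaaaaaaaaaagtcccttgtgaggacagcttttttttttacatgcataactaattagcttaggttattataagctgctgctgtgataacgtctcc

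The libraries were alike in depth, with expected counts of 37128010 in replicate 1 and 38543623 in replicate 2, so that 1 read on 1 kb of effective length made 0.0406 and 0.0389 TPM (reads per transcript length, scaled to the same total in each library). Spike-ins took 2.91% and 4.59% of these counts, and TPM as deposited sums over spike-ins too. All 5 mesenchyme genes listed for the face were at 1 TPM or more in both libraries, as were 65.4% of coding genes. Their leader was the homeobox gene Msx1 with 145.3 and 158 TPM. These 5 were chosen after earlier results were known, so they do not check the facial label. The labels gave no litters or days, so how far the spread between replicates is technical was not tested. Below, SDs are over the replicates (n = 2). The 95% intervals of counts (exact Poisson) and of ratios (Clopper-Pearson) cover counting error only.

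Melanocyte transcripts were present in the face at this stage, at low to middle levels. Of the 10 members 9 reached 1 TPM in both libraries, against 65.4% of the 21474 protein-coding genes in the tables. The median of the members was 7.66 TPM in replicate 1 and 7.31 TPM in replicate 2, beside medians of 6 and 6.195 TPM over all coding genes and of 18.0 and 18.1 TPM over coding genes that reached 1 TPM in both. Together the 10 genes held 106.9 and 96.3 TPM.

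**Figure D1:**
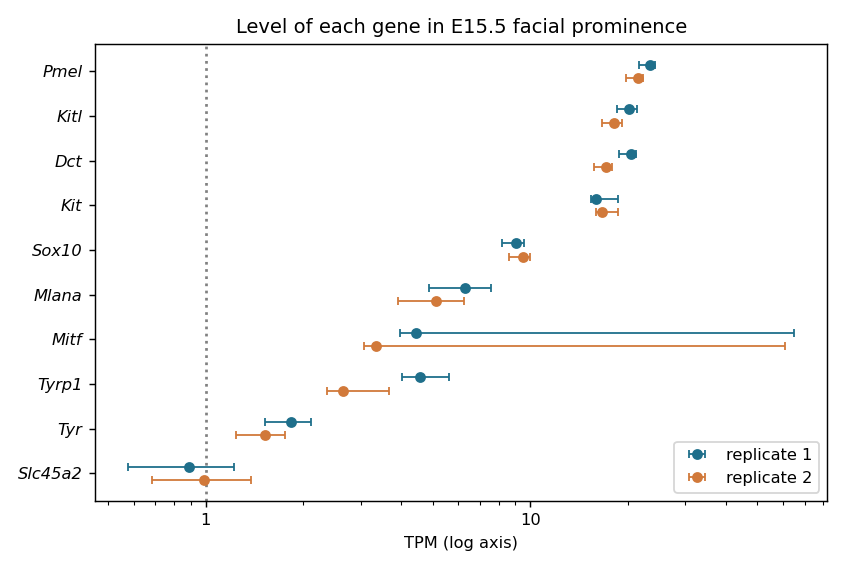
TPM of each of the 10 genes on a log axis in replicate 1 (blue) and replicate 2 (orange), with the deposited credibility bounds as bars and a dotted line at 1 TPM. Pmel is highest and Slc45a2 lowest, and the upper bounds of Mitf reach 65.0 and 61.0 TPM.

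Of the transcription factors, Sox10 was the more abundant. Sox10 (ENSMUSG00000033006, chr15:79154908-79165240, minus strand) had 9.05 TPM in replicate 1 and 9.50 TPM in replicate 2, from 583 and 638 reads. Mitf (ENSMUSG00000035158, chr6:97807052-98021349, plus strand) had 4.43 and 3.35 TPM, from 324 reads (95% interval 289.7 to 361) and 278 reads (246 to 313). The level of Sox10 was thus 2.04 times that of Mitf in replicate 1 and 2.84 times in replicate 2, and the deposited TPM of these genes did not overlap. The order turned with the authors' posterior mean TPM, which was 24.4 and 22.5 for Mitf and 8.86 and 9.30 for Sox10, and the deposited bounds of Mitf, 3.98 to 65.0 TPM in replicate 1 and 3.08 to 61.0 TPM in replicate 2, covered those of Sox10 in both libraries. Without 1 Mitf transcript that has no read, described with the Mitf forms, the posterior mean of Mitf averaged 4.02 TPM, an alternative chosen after seeing the data.

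The melanosome structure genes were further apart. Pmel (ENSMUSG00000025359, chr10:128704195-128720238, plus strand) encodes the protein of the fibrils on which melanin is laid down, and was the most abundant member with 23.4 and 21.4 TPM (1172 and 1118 reads). Its exons share 105 bases with Dgka, a diacylglycerol kinase gene on the opposite strand at 20.5 and 20.7 TPM, and without a stated strand setting reads there cannot be told apart. Mlana (ENSMUSG00000024806, chr19:29697824-29708634, plus strand), whose melanosomal product interacts with the Pmel protein, had 6.27 and 5.12 TPM. As its quantified transcript was only 623 bases long, these values rested on 81 reads (64.3 to 100.7) and 69 reads (53.7 to 87.3).

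The 3 enzyme genes formed a steep series. Dct (ENSMUSG00000022129, chr14:118012790-118052244, minus strand), whose product converts dopachrome and which is an early melanoblast marker, had 20.4 TPM in replicate 1 and 17.1 TPM in replicate 2 (1085 and 950 reads). Tyrp1 (ENSMUSG00000005994, chr4:80834123-80851719, plus strand), which acts late in the making of black eumelanin, had 4.56 and 2.65 TPM from 270 reads (239 to 304) and 163 reads (139 to 190.0). Tyr (ENSMUSG00000004651, chr7:87424771-87493512, minus strand), the tyrosinase that starts melanin synthesis and limits its rate, had 1.83 and 1.52 TPM from 145 and 125 reads. Dct stood above Tyr by 11.1 times in replicate 1 and 11.3 times in replicate 2, and above Tyrp1 by 4.47 and 6.45 times. The ratio to Tyr was nearly the same in both libraries while that to Tyrp1 was not, because Tyrp1 itself differed between them.

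Slc45a2 (ENSMUSG00000022243, chr15:11000721-11029233, plus strand), a melanosome transporter gene whose loss pales the coat, was the only member below 1 TPM, with 0.89 TPM in replicate 1 and 0.99 TPM in replicate 2. Its expected counts were 63.5 (49.3 to 81.7) and 73.6 (58.1 to 92.9), and the deposited credibility bounds, whose level the tables do not give, ran from 0.577 to 1.22 TPM and from 0.684 to 1.38 TPM. Whether it lies below 1 TPM was therefore not settled at this depth.

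Receptor and ligand were close in level. Kit (ENSMUSG00000005672, chr5:75574916-75656722, plus strand) had 15.99 and 16.6 TPM from 1982 and 2126 reads. Kitl (ENSMUSG00000019966, chr10:100015630-100100416, plus strand) had 20.1 and 18.1 TPM from 2469 and 2231 reads. The ligand's level was 1.26 times that of the receptor in replicate 1 and 1.09 times in replicate 2, with no overlap between the values of these genes. The deposited bounds did overlap, at 18.5 to 21.4 TPM for Kitl and 15.4 to 18.6 TPM for Kit in replicate 1, and at 16.6 to 19.2 TPM and 15.9 to 18.6 TPM in replicate 2.

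Averaged over the replicates, the order was Pmel (22.4 ± 1.41 TPM), Kitl (19.1 ± 1.44 TPM), Dct (18.7 ± 2.31 TPM), Kit (16.3 ± 0.438 TPM), Sox10 (9.28 ± 0.318 TPM), Mlana (5.70 ± 0.813 TPM), Mitf (3.89 ± 0.764 TPM), Tyrp1 (3.61 ± 1.35 TPM), Tyr (1.68 ± 0.219 TPM) and Slc45a2 (0.94 ± 0.0707 TPM). Among neighbours in this order, Kitl with Dct and Mitf with Tyrp1 overlapped in their values over the replicates, so their order is not given by the data. Other neighbours did not overlap in these values, which alone does not settle their order. In replicate 2 the deposited bounds of Dct (15.7 to 17.8 TPM) and Kit (15.9 to 18.6 TPM) overlapped, as did those of Tyr and Slc45a2. The deposited bounds of Mitf covered those of Mlana in both libraries. Pmel lay above 71.3% of all coding genes and Slc45a2 above 33.0%, and the mean of Pmel was 23.9 times that of Slc45a2.

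The replicates gave similar values except for Tyrp1. Scaled by TMM (a factor that sets most genes alike between libraries), 1 member passed 1.5-fold, where 9.08% of the 18318 genes counted at least 10 times in each library did so either way and 4.31% did so with replicate 1 higher. Over the 10048 coding genes with mean counts in the range of the members, from 69 to 2350, the shares were 5.29% and 1.5%. That member was Tyrp1, 1.72-fold higher in replicate 1, a log2 ratio of 0.78 (0.50 to 1.08). With 1 library on each side there is no test of this difference.

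Smaller ratios leaned mostly to replicate 1. In all 7 members were higher there, where 49.8% of the 18318 genes and 46.5% of the coding genes of like count were, and the median log2 ratio was 0.23 over the 10 and -0.01 over those coding genes. For 5 members the counting interval lay above 0, as it did for 18.3% of the 18318 genes and 15.8% of the coding genes of like count. They were Tyrp1, Mitf at 0.28 (0.04 to 0.52), Dct at 0.25 (0.12 to 0.38), Kitl at 0.21 (0.12 to 0.29) and Pmel at 0.13 (0.01 to 0.25). The intervals of Mlana at 0.28 (-0.19 to 0.78) and Tyr at 0.27 (-0.08 to 0.63) held 0. Kit at -0.04 (-0.13 to 0.05), Sox10 at -0.07 (-0.24 to 0.09) and Slc45a2 at -0.15 (-0.66 to 0.35) were slightly lower in replicate 1, but these 3 lay above 0 like the other 7 when scaled by spike-ins, which set the median of all genes at 0.65. Between these replicates genes varied by a common biological coefficient of variation of 12.7%, and the central 95% of coding genes of like count ran from -0.71 to 0.47 on the log2 scale, so every member but Tyrp1 lay inside it.

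Some marker lists of other cells leaned the same way and others did not, where 49.8% of the 18318 genes were higher in replicate 1. The median log2 ratio was 0.26 over the mast cell markers, with 7 of 9 higher in replicate 1, 0.17 over those of keratinocytes and hair follicle, with 5 of 7 higher, 0.16 over those of osteoclasts, with 6 of 8 higher, and 0.12 over those of blood progenitors, with 5 of 6 higher. Over the Schwann cell markers it was 0.01, with 5 of 10 higher, and over those of the retinal pigment epithelium -0.12, with 2 of 5 higher. Over the facial mesenchyme genes it was -0.12, with 2 of 5 higher. For lists described below, it was -0.06 over the melanoblast regulators (7 of 16 higher) and -0.07 over paralogs of the members (1 of 8). Over melanosome genes it was 0.06 (12 of 22) and over Kit signalling and Kitl shedding 0.04 (10 of 17). Over the receptor family of Kit with its ligands it was 0.03 (6 of 9). The part of the listed cells in the ratios of the members was not tested.

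**Figure D2:**
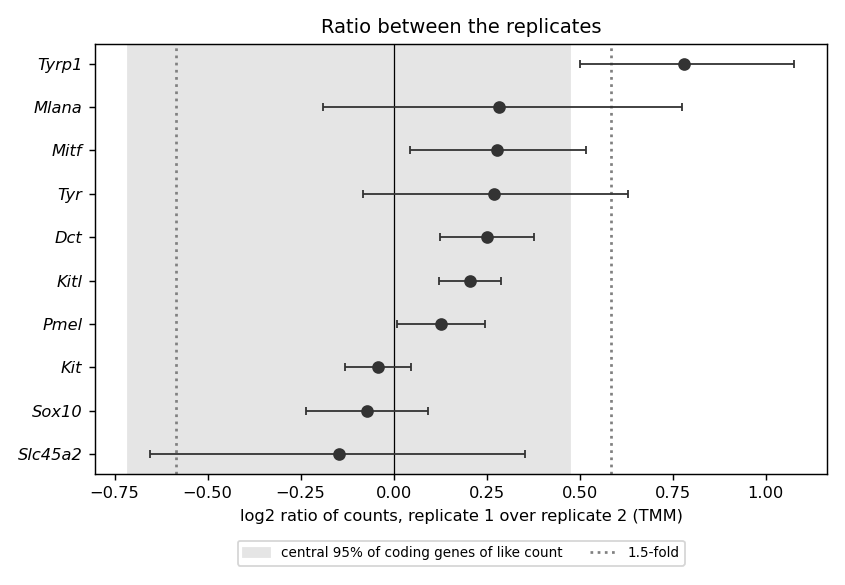
Log2 ratio of counts, replicate 1 over replicate 2 after TMM scaling, with 95% counting intervals as bars, for each of the 10 genes. The grey band is the central 95% of coding genes of like count (-0.71 to 0.47), dotted lines mark 1.5-fold, and only Tyrp1, at 0.78, lies outside the band.

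Kitl was mostly of the form with exon 6. By the deposited share of a gene's transcripts (IsoPct, in percent of its TPM), Kitl-202, with the exon, took 87.3% in replicate 1 and 83.2% in replicate 2. Kitl-201, which skips it and encodes a ligand of 245 codons in place of 273, took 11.1% and 15.3%. In TPM, Kitl-202 had 17.6 and 15.05 with bounds of 16.4 to 17.9 and 14.05 to 15.4, and Kitl-201 had 2.23 and 2.77 with bounds of 0.890 to 3.74 and 1.57 to 4.09. The forms did not overlap in either library, while the bounds of Kitl-201 overlapped between libraries. Kitl-201 also ends in a last exon of 381 bases where that of Kitl-202 has 4399, so the shares rest on more than exon 6, and as shares of expected counts Kitl-202 took 97.2% and 96.1%. A short transcript that ends before the exon, Kitl-203, took 1.61% and 1.49%.

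**Figure D3:**
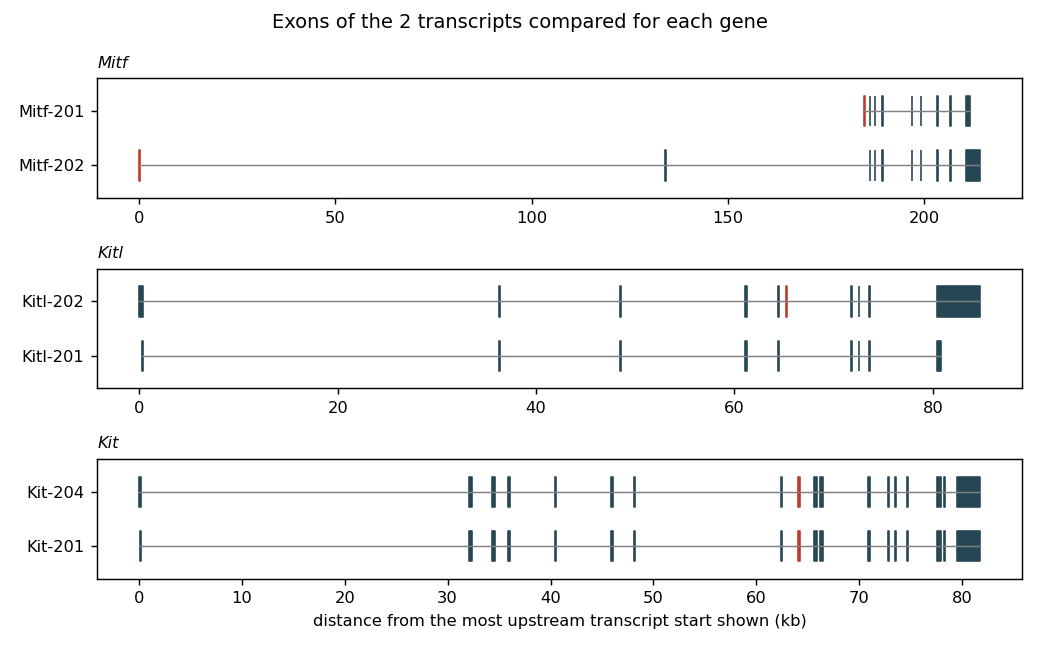
Exons of the pair of transcripts compared in Mitf, Kitl and Kit, drawn to scale along the genome as distance in kb from the most upstream start shown, with thin lines as introns. Red marks the first exons of Mitf, exon 6 of Kitl and exon 9 of Kit, whose last 12 bases differ.

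The Kit forms differed in share between the libraries. Kit-204, which lacks the insert of 12 bases, took 68.9% of Kit transcripts in replicate 1 and 53.0% in replicate 2, and Kit-201, which has it, took 28.8% and 43.6%. The form without the insert was thus more abundant than the other by 2.40 times in replicate 1 and 1.22 times in replicate 2. Its deposited bounds of 8.48 to 12.5 TPM and 6.45 to 10.6 TPM overlapped between libraries, as did those of Kit-201 at 2.84 to 6.72 TPM and 5.07 to 9.25 TPM. Within replicate 2 the bounds of the forms overlapped as well, and within replicate 1 they did not. The forms also differ by 39 bases at the 5′ end, and in transcripts of 5241 and 5214 bases these stretches are all that tells them apart. The only other Kit transcript with a count was Kit-205, a transcript with a retained intron, at 2.34% and 3.42%.

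Most Mitf transcripts were not of the melanocyte form. Mitf-201, from the melanocyte first exon, took 27.9% in replicate 1 and 31.2% in replicate 2, from expected counts of 55.6 and 48.8. As a share of expected counts the melanocyte exon took a mean of 17.4%, and by posterior mean TPM 4.89%, against 29.5% by IsoPct. Transcripts from the most upstream first exon took 68.1% and 68.8%. Of these the coding Mitf-202 had 43.1% and 51.01%, and Mitf-206, a short transcript with a retained intron, 24.9% and 17.8%. With Mitf-206 counted, the upstream start thus stood above the melanocyte start by 2.44 times in replicate 1 and 2.22 times in replicate 2. The last exon of Mitf-202 ends 214.291 kb from the most upstream start shown, where that of Mitf-201 ends at 211.649 kb. The shares of these forms therefore rest on more than the first exon. In TPM, Mitf-201 had 1.24 and 1.04 with bounds of 0.297 to 1.55 and 0.431 to 1.31, and Mitf-202 had 1.91 and 1.71 with bounds of 1.53 to 2.11 and 1.37 to 1.88, so the bounds met in replicate 1 and not in replicate 2. Beside the wide upper bounds of Mitf as a gene stood a transcript of 101 bases with no read, whose effective length of 2 bases gave it upper bounds of 60.5 and 57.4 TPM. That transcript has no entry in GENCODE M21.

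**Figure D4:**
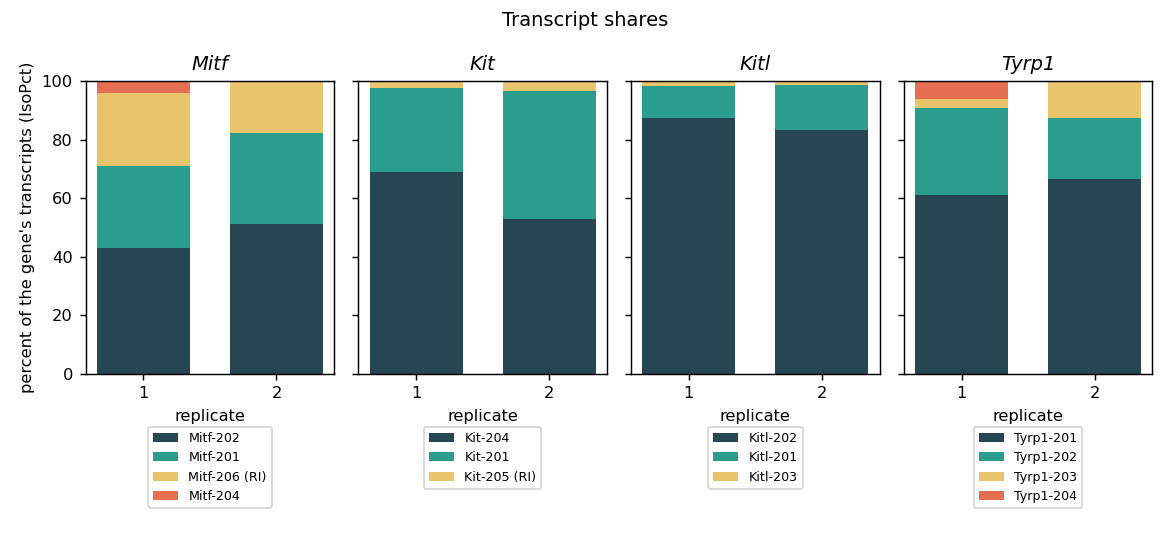
Percent of each gene's transcripts taken by each transcript (IsoPct), stacked, in replicates 1 and 2, for the 4 members with more than 1 transcript in the tables, with RI for a retained intron. Kit-204 takes 68.9% and 53.0%, Kitl-202 87.3% and 83.2%, Mitf-202 43.1% and 51.01% and the longest Tyrp1 transcript 61.2% and 66.4%.

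Tyrp1 was divided mainly between a pair of transcripts with different first exons. The transcript of 2720 bases took 61.2% and 66.4%, and that of 2623 bases, with a coding sequence of the same 1611 bases, 29.5% and 20.97%. Of the short ones, that of 1053 bases took 3.23% and 12.6% and that of 529 bases 6.09% and 0%, on at most 8.21 expected reads each. The bounds of the leading pair overlapped in both libraries, so their order is uncertain. The other 6 members had 1 transcript each in the tables.

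Genes that act with the members were mostly detected at 1 TPM or more in both libraries, as were 65.4% of all coding genes. Past 1.5-fold between the libraries were 9.08% of the 18318 genes counted at least 10 times in each. Both shares are the background for the lists that follow. Of 16 melanoblast regulators found by symbol, 15 were at 1 TPM or more in both libraries, led by the transcription factor genes Zeb2 (58.0 and 56.1 TPM), Snai2 (48.9 and 56.1 TPM) and Sox9 (36.4 and 47.2 TPM), which other facial cells also express. Of the 16, only Pomc, the precursor gene of melanocyte-stimulating hormone, passed 1.5-fold between the libraries, with 1.83 and 4.67 TPM. Of 23 genes of melanosome formation and transport, 21 were detected, with medians of 8.74 and 8.73 TPM, and none of the 22 with enough counts passed 1.5-fold. Their leaders were Cd63 (1054 and 952 TPM), Dtnbp1 (48.2 and 48.4 TPM) and Ap3d1 (44.2 and 45.99 TPM), all used by lysosome-related organelles in many cells. For Kit signalling and the shedding of Kitl, all 17 genes were detected and none passed 1.5-fold, led by the adaptor genes Shc1 (88.2 and 88.6 TPM) and Grb2 (89.5 and 72.7 TPM) and by the protease gene Adam33 (61.1 and 62.3 TPM).

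Relatives of the members, and ligands of the receptors related to Kit, were in places more abundant than the members. Among the other type III receptor kinases, the family of Kit, and the ligands of these receptors, 9 of 10 genes found were detected. The leaders were the ligand gene Pdgfa (67.0 and 54.2 TPM) and the receptor genes Pdgfrb (46.3 and 48.8 TPM) and Pdgfra (47.5 and 47.3 TPM). None of 9 with enough counts passed 1.5-fold. Among 8 paralogs of Mitf, Sox10 and Slc45a2, 6 were detected, 1 passed 1.5-fold, and the leaders were Sox9, Tfe3 (26.3 and 28.2 TPM) and Sox8 (11.5 and 10.8 TPM). Tfe3, of the Mitf family, thus stood above Mitf in deposited TPM in both libraries. The wide deposited bounds of Mitf covered these values of Tfe3, so by the bounds alone this order is uncertain. Those bounds include the Mitf transcript of 101 bases with no read, whose own upper bounds were 60.5 and 57.4 TPM. Without that transcript the posterior mean of Mitf averaged 4.02 TPM, an alternative chosen after seeing the data.

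Markers of other cells that use the same genes were present to unequal degrees. Of 10 mast cell markers 9 were detected, summing to 857 TPM in replicate 1 and 705 TPM in replicate 2, led by the protease genes Cma1 (300.5 and 251 TPM), Cpa3 (195 and 167 TPM) and Tpsb2 (189 and 130.3 TPM). None of them was at 0, and 7 of the 9 with enough counts were higher in replicate 1 and 1 passed 1.5-fold. All 10 Schwann cell markers were detected, summing to 90.9 and 105 TPM, led by Fabp7 (18.6 and 34.3 TPM), Erbb3 (20.7 and 18.8 TPM) and Egfl8 (10.6 and 8.82 TPM), and Fabp7 was the 1 past 1.5-fold. Of 7 blood progenitor markers 5 were detected, summing to 136 and 125 TPM, of which Cd34 (111 and 97.3 TPM), also an endothelial gene, made up most, followed by Spi1 (9.87 and 9.68 TPM) and Hlf (7.96 and 7.83 TPM). The part of mast cells, Schwann cells and blood progenitors in the levels of Kit, Sox10 and Mitf was not tested.

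Retinal pigment epithelium markers were low. Only 2 of 10 reached 1 TPM in both libraries, Rdh5 (15.9 and 16.9 TPM) and Otx2 (5.79 and 7.39 TPM), followed by Best1 (1.56 and 0.92 TPM), and medians were 0.51 and 0.615 TPM. Rpe65, a visual cycle enzyme gene on this list, had no read, where 3 reads would make 0.0810 and 0.0777 TPM. Whether cells of this epithelium were in the samples was not tested. Of 8 osteoclast markers 6 were detected, summing to 211 and 192 TPM, led by Ctsk (112 and 96.9 TPM), Mmp9 (33.7 and 36.5 TPM) and Acp5 (35.8 and 29.9 TPM), and their part in the level of Mitf was not tested. All 7 keratinocyte and hair follicle markers were detected, with medians of 64.9 and 58.5 TPM, led by Krt14 (1005 and 887 TPM), Krt5 (793 and 682 TPM) and Krt17 (404 and 314 TPM). Keratinocytes are a known source of Kitl, and their part in its level was not tested.

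**Figure D5:**
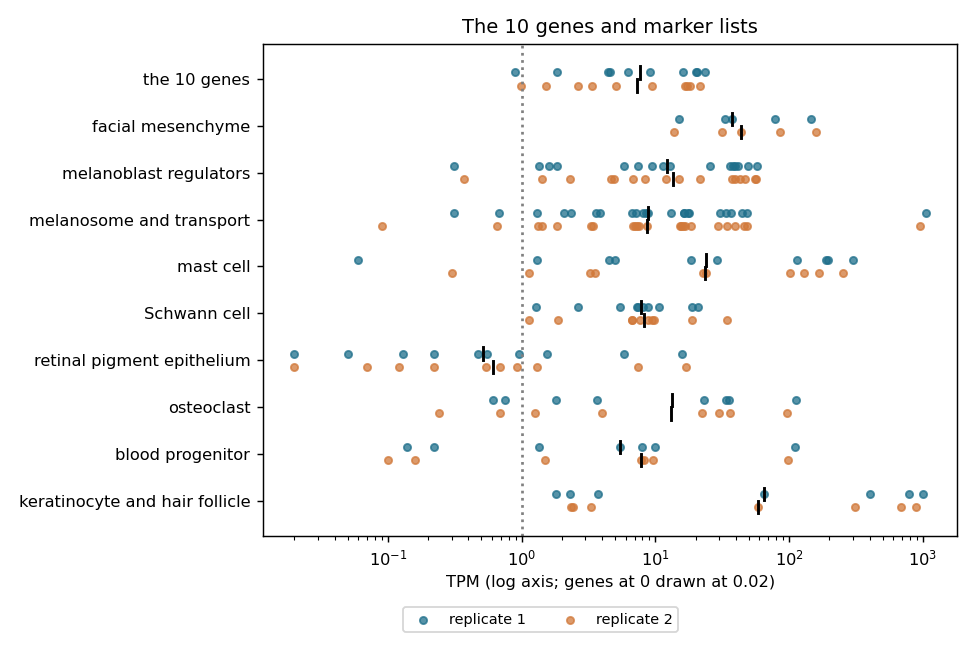
TPM on a log axis of each gene of the 10 and of the marker lists in replicate 1 (blue) and replicate 2 (orange), with black ticks at medians, a dotted line at 1 TPM, and values of 0 drawn at 0.02. The 10 genes have medians of 7.66 and 7.31 TPM and the retinal pigment epithelium list medians of 0.51 and 0.615 TPM.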

How the data were processed

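Total RNA-seq was measured in 2 libraries of 1 group, quantified one by one by the authors against mm10 with annotation M4, per the README text deposited with the samples. For the aligner, the quantification program and strandedness, names were not given in the sources used here. Per the file headers, the deposited tables give an expected count, TPM, credibility bounds and, for transcripts, the percent of the gene's TPM. The bounds are deposited by the authors in TPM, have no fixed sum and count here as a score. Tested on the tables, effective length was length minus 99. Genes were named through GENCODE M21 (GRCm38), by identifier without version, and 1 of the 10 members had the same version there. Coordinates are those of M21 and may span transcripts added since M4.

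For ratios, expected counts were rounded, scaled with edgeR 4.0.16 under R 4.3.3 (TMM 0.989 and 1.01) and shrunk with a prior count of 2, over genes counted at least 10 times in each library. DESeq2 1.42.0 gave other size factors. Other steps used Python 3.11.15, pandas 2.3.3, numpy 2.4.6, scipy 1.17.1 and matplotlib 3.10.9. The ratio step was tested on simulated data. No p-value was computed, as there is 1 group. Members, lists and the 1.5-fold rule were chosen with earlier results of these data known. Named were all members, their transcripts at 5% or more in either library, and the 3 most abundant genes of each list with those at 0. A few others, such as Pomc and Kit-205, were named after their values were seen. Asip and Flt3l were listed but not used here, as their symbols did not match.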

Additional observations from a re-analysis of the deposited data

How the results depend on the processing

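Of 22 alternatives for the main values other than leaving out a replicate, 15 left them within 1 SD of the replicates, or within 1.5 times for a count. Of 63 for single members, 44 did so, or stayed inside the counting interval of a ratio. Signs changed for 3 members, under spike-in scaling alone, where Kit stood at 0.61, Sox10 at 0.58 and Slc45a2 at 0.49 on the log2 scale. Members detected stayed between 8 (at 2 TPM) and 10 (at 0.5 TPM), but the share of coding genes was computed at 1 TPM only (65.4%). The median of 7.49 TPM moved to 12.9 TPM with the authors' posterior mean TPM and to 8.16 TPM when rescaled over mouse genes alone. Posterior means moved Mitf from 3.89 to 23.4 TPM and its melanocyte share from 29.5% to 4.89%, because they give the transcript of 101 bases 19.8 and 19.0 TPM. Without it, an alternative chosen after seeing the data, they were 4.02 TPM and 28.7%. The melanocyte share was 17.4% of expected counts and 37.5% of coding transcripts, and the exon 6 share of Kitl was 96.7% of expected counts, where longer transcripts weigh more. Scaling by spike-ins put 8 members past 1.5-fold in place of 1, all 10 above 0 from 0.49 to 1.43 on the log2 scale. The median of all genes was shifted to 0.65, itself past 1.5-fold, so this count describes the scaling more than the members. The share of all genes past 1.5-fold under that scaling was not computed. Leaving out a replicate gives the value of the other library, which with 2 replicates always lies within 1 SD of their mean and so says nothing of stability. No paired analysis was possible because the labels give 1 group. Members with under 100 reads, Mlana and Slc45a2, are limited by depth.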
